A study of Mus musculus with 16 samples.

Results

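The genes described are those of the red cell: the adult alpha globins Hba-a1 and Hba-a2, the adult beta globins Hbb-bs and Hbb-bt, the membrane proteins Slc4a1 and Epb42, the heme enzyme Alas2 and the transcription factor Klf1. They were taken by gene symbol as a measure of blood in the fetal pancreas and in islets. Of the 8 listed genes, 6 had a row under their symbol among the 24091 genes of the count tables, 1 more was found by its position, and Hba-a1 had no row of its own. Levels come from messenger RNA sequencing of whole mouse pancreata at embryonic day 16.5 (E16.5) and of islets picked by hand from male mice aged 60 weeks. Knockout (KO) animals were Pdx1:Cre;Tff2fl/fl and controls were Tff2fl/fl, so that both carried the floxed alleles of the trefoil peptide gene Tff2 and only the KO animals carried the Cre recombinase. The Pdx1 promoter drives that Cre in the pancreatic epithelium. There were 3 control and 3 KO pancreata, and 5 control and 5 KO islet preparations. Each library carried its own number. Which embryos were littermates is not stated in the labels, and p-values measure the spread between separately numbered animals. The spleen was dissected off the dorsal pancreas, and adult islets were freed with collagenase and separated on a density gradient.

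Red cells carry oxygen on hemoglobin, a tetramer of alpha and beta globin chains, each holding a heme group. Alas2 is the erythroid form of the enzyme that starts heme synthesis, Slc4a1 is band 3, the anion exchanger of the red cell membrane, and Epb42 is protein 4.2, which ties band 3 to the membrane skeleton. Klf1 is the erythroid factor that binds CACCC boxes in globin and other red cell promoters, and it is made in nucleated precursors. In the mouse fetus red cells mature mainly in the liver. Reticulocytes, the youngest circulating red cells, still hold globin messenger RNA after the nucleus has been lost, so a dissected organ can bring such RNA with its blood.

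Each adult globin is encoded by a pair of near-identical genes, which sets what a count can mean. The alpha globin row spanned chr11:32283672-32297310 (mm10, plus strand), from the RefSeq start of Hba-a1 to the RefSeq end of Hba-a2, and also overlapped Hbq1b. It was therefore read as the alpha pair. The row named Hbb-b2 lay at chr7:103812524-103813923 (minus strand), which is the RefSeq position of Hbb-bt, and is called Hbb-b2 below. Hbb-bs lay at chr7:103826523-103827929 (minus strand). The coding sequences of Hba-a1 and Hba-a2 (429 bases each, GENCODE M21) differed at 1 base, and those of Hbb-bs and Hbb-bt (444 bases each) also differed at 1 base. The stretches around these bases are shown because they hold the only coding difference within each pair, written in capitals.
Hba-a1: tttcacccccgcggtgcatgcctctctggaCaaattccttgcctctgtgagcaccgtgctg
Hba-a2: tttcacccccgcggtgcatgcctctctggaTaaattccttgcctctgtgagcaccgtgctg
Hbb-bs: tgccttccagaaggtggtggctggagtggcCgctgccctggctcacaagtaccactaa
Hbb-bt: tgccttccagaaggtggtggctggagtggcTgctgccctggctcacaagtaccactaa
Of all 100-base windows of the coding sequence, 85.2% were the same in both alpha genes and 91.9% were the same in both beta genes. The sources do not say how reads that fit both copies were counted, so the split between copies is uncertain. If such reads were left out, the sums fall short as well. Levels and ratios that use the globin rows share this limit.

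The promoters of the pairs were less alike for the beta than for the alpha genes. In the 250 bases before the RefSeq start (GRCm38.p6), the alpha promoters were identical over the 247 bases compared, while the beta promoters shared 127 of 249 bases. Each pair was compared at a single fixed shift with no gaps. An inserted or lost base puts the rest out of step, so the likeness of the beta promoters may be understated. They are shown because the globins and Alas2 moved together from library to library, and whether the promoters bear on that was not tested. Capitals mark the letters of 2 motifs on either strand. One is CACCC, which reads GGGTG on the opposite strand and is the box bound by Klf1-like factors. The other is AGATAA, which reads TTATCT on the opposite strand and is bound by GATA factors. The windows were chr11:32283422-32283671 (plus) for Hba-a1, chr7:103827929-103828178 (minus) for Hbb-bs, chr7:103813924-103814173 (minus) for Hbb-bt and chrX:150547167-150547416 (plus) for Alas2.
Hba-a1: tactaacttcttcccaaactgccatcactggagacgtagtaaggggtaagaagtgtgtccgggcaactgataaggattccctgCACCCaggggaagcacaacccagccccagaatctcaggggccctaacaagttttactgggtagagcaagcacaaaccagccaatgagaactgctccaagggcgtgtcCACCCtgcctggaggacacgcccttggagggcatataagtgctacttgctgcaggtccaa
Hbb-bs: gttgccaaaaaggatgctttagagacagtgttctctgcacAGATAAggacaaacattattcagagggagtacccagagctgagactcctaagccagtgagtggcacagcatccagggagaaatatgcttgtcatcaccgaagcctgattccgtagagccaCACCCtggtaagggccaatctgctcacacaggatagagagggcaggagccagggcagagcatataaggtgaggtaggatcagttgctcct
Hbb-bt: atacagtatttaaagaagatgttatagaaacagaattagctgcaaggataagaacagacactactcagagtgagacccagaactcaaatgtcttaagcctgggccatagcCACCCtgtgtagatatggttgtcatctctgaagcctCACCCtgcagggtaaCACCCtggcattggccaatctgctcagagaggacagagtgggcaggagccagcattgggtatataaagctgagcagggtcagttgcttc
Alas2: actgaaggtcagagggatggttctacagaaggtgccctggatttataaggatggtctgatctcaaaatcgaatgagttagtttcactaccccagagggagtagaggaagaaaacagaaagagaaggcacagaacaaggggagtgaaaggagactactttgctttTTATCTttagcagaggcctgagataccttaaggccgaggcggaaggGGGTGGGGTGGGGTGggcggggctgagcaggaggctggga
CACCC on either strand was present in 6 of the 7 promoters with an entry (Hba-a1, Hba-a2, Hbb-bs, Hbb-bt, Alas2 and Klf1), against 52.0% of 32851 promoters. The Hba-a1 and Hba-a2 promoters, identical where compared, are counted separately here. AGATAA on either strand was present in 3 of the 7 (Hbb-bs, Alas2 and Epb42), against 9.99% of all promoters. Only this spelling was searched, and the Hba-a1 window, counted as without it, holds the like letters TGATAA. Matches of the first motif shared no bases with those of the second in any of the 7. A match describes the letters of the window and not a binding site.

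The libraries held 14866194 to 22699934 reads in pancreata and 22595400 to 32385042 in islets. Levels are given as CPM, reads of a gene relative to the TMM-scaled size of its library. The targeted gene Tff2 was at 38.7, 22.7 and 35.1 CPM in control pancreata 02, 08 and 13 and at 2.70, 9.96 and 1.60 CPM in KO pancreata 01, 18 and 19. In islets it was at 0.977 to 4.70 CPM in controls and 0 to 0.478 CPM in KO animals. The acinar factor Ptf1a was at 81.5 to 101 CPM in pancreata and at most 0.116 CPM in islets, and Ins2 was at 64768 to 86416 CPM in islets. KO pancreas 18 was the only male by its Xist (1.56 CPM) and Ddx3y (134 CPM) levels, the other 5 having Xist at 1088 to 1809 CPM. KO pancreas 01 stood apart by liver genes, with 616 CPM of Alb (albumin) and 605 CPM of Afp (alpha-fetoprotein), against 26.9 to 101 CPM of Alb and 36.7 to 91.3 CPM of Afp in the other 5.

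Adult globin RNA was present in every pancreas and formed a small part of each library. The 3 globin rows together were at 2081, 1663 and 1757 CPM in control pancreata 02, 08 and 13, and at 2054, 3230 and 1590 CPM in KO pancreata 01, 18 and 19. KO 18 was the highest and KO 19 the lowest, with the controls and KO 01 between them. Per kilobase of gene length the order in controls was Hbb-bs (1855 ± 208 RPKM, SD, n = 3), Hbb-b2 (529 ± 63.3 RPKM), Hba-a2 (284 ± 43.2 RPKM), Alas2 (37.9 ± 5.51 RPKM), Slc4a1 (6.51 ± 2.13 RPKM), Epb42 (1.04 ± 0.230 RPKM) and Klf1 (0.660 ± 0.439 RPKM). Epb42 and Klf1 overlapped in RPKM between control libraries, and the other neighbours in this order did not. The length of the Hba-a2 row, 1.126 kb, is that of the deposited table.

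**Figure D1:**
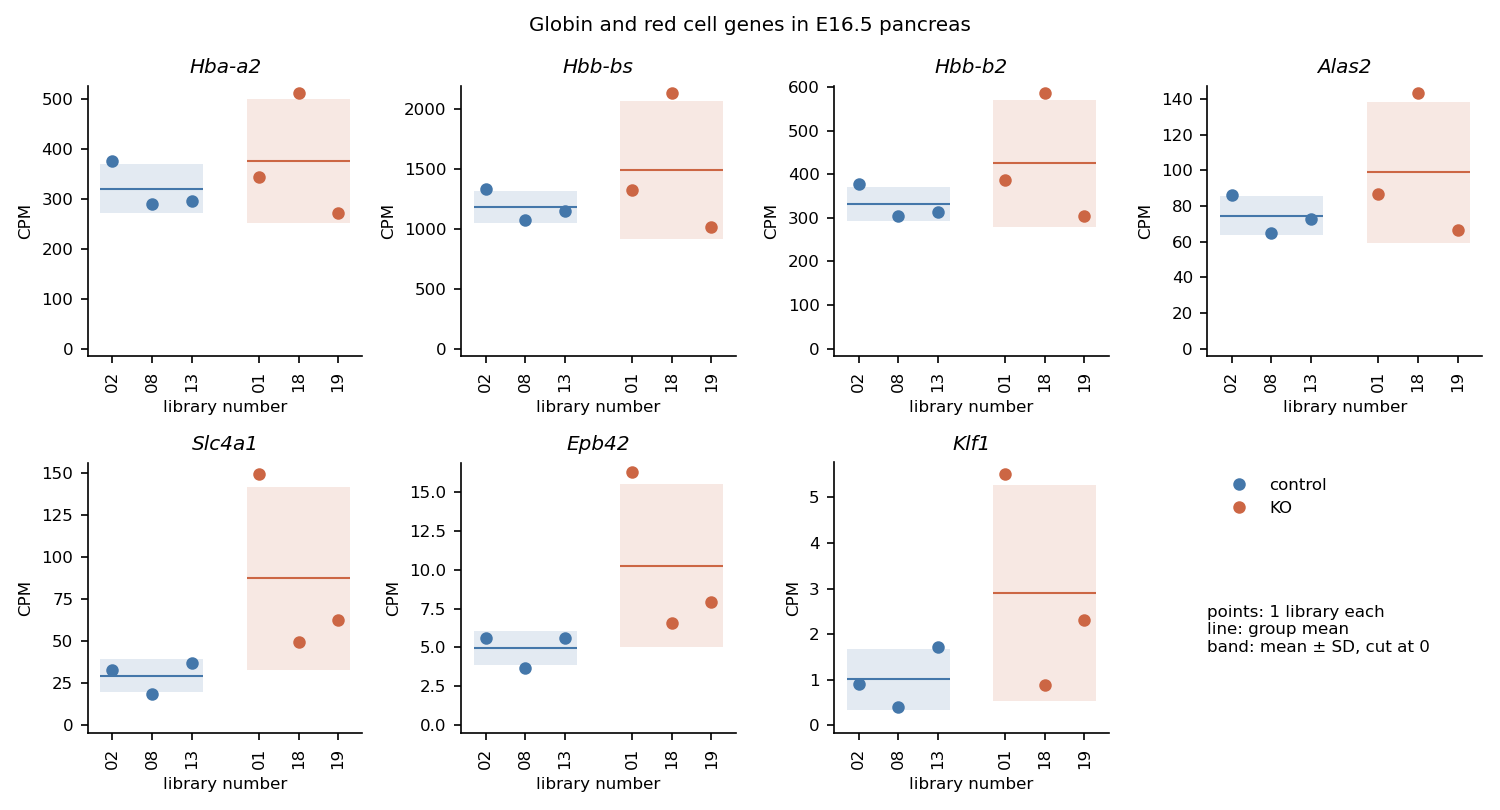
Level of each gene in CPM (linear axis from 0) in 3 control and 3 KO pancreata at E16.5, with 1 point per library, a line at the group mean and a band of ± SD cut off at 0. The globins and Alas2 are highest in KO 18, while Slc4a1, Epb42 and Klf1 are highest in KO 01.

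None of the globins passed the test between KO and control pancreata, and their groups overlapped. The alpha row Hba-a2 was at 376, 290 and 295 CPM in controls 02, 08 and 13 and at 345, 513 and 271 CPM in KO 01, 18 and 19. KO 18 was above all others and KO 19 below all others. Its log2 fold change of KO against control was 0.23 (SE 0.22), and the quasi-likelihood test of edgeR gave an adjusted p of 0.541.

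The main beta globin, Hbb-bs, showed the same order. It was at 1328, 1070 and 1147 CPM in controls and at 1323, 2129 and 1015 CPM in KO pancreata, with KO 18 again the highest and KO 19 the lowest. The log2 fold change was 0.33 (SE 0.24, edgeR adjusted p = 0.427). Hbb-b2, the row at the position of Hbb-bt, was at 377, 304 and 315 CPM in controls and at 387, 588 and 304 CPM in KO pancreata. Its log2 fold change was 0.36 (SE 0.22, edgeR adjusted p = 0.338), and its groups overlapped as well. Summing both beta rows before the fit gave 0.34 (SE 0.24, edgeR adjusted p = 0.410).

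The higher KO mean of the globins rested on 1 library. Without KO 18 the log2 fold changes of Hba-a2 and Hbb-bs were -0.06 and -0.02, and that of Hbb-b2 was 0.06. KO 18 was also the only male, so sex and that library cannot be told apart.

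Alas2, the heme enzyme, behaved like the globins. It was at 86.3, 64.9 and 72.6 CPM in controls 02, 08 and 13 and at 86.9, 143 and 66.8 CPM in KO 01, 18 and 19. KO 18 was the highest and the remaining values overlapped. KO exceeded control by 0.40 on the log2 scale (SE 0.25, edgeR adjusted p = 0.353), and 0.04 without KO 18. The Alas2 locus (chrX:150547417-150570622, plus strand) overlaps Apex2 and Mir3620 on the other strand, and reads of either strand cannot be told apart where the counting ignored strand.

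Slc4a1, or band 3 (chr11:102348820-102365281, minus strand), had, with Klf1, the largest fold change of the 7 rows, and a different order of libraries. It was at 32.7, 18.7 and 37.1 CPM in controls 02, 08 and 13 and at 150, 49.7 and 62.7 CPM in KO 01, 18 and 19. Every KO value lay above every control value, and KO 01 was the highest. The log2 fold change was 1.57 (SE 0.42), with an edgeR p of 0.00590 and an adjusted p of 0.0650, just short of the threshold of 0.05.

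Epb42, protein 4.2 (chr2:121017891-121036877, minus strand), was at 5.61, 3.70 and 5.58 CPM in controls and at 16.3, 6.57 and 7.91 CPM in KO pancreata. The groups did not overlap and KO 01 was the highest. The log2 fold change was 1.05 (SE 0.35, edgeR adjusted p = 0.106). Klf1, the erythroid regulator (chr8:84901928-84905295, plus strand), was at 0.913, 0.392 and 1.73 CPM in controls and at 5.51, 0.881 and 2.32 CPM in KO pancreata. These correspond to 20, 7 and 30 reads in controls and 104, 13 and 39 reads in KO pancreata. KO 18 lay within the control range while KO 01 and 19 lay above it, and KO exceeded control by 1.55 on the log2 scale (SE 0.68, adjusted p = 0.201 in edgeR).

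In all, 0 of 7 rows passed an adjusted p of 0.05 in edgeR, where 6.43% of 14914 tested genes did, 3.75% with KO higher. At an unadjusted p under 0.05 there were 2 of the 7, Slc4a1 and Epb42, a share near the 25.4% of all tested genes. DESeq2 called 1 row, Epb42 (adjusted p = 0.0214), where 5.87% of its genes were called with KO higher. The groups did not overlap for 2 of the 7 (Slc4a1 and Epb42, KO higher), and for 31.1% of all tested genes in either direction, of which those with KO higher made up 15.0% of tested genes. The calls moved with the libraries and the scaling. Without KO 01 Slc4a1 had a log2 fold change of 0.94 and passed in edgeR (adjusted p = 0.0457), as did 6.88% of all genes. Without KO 18 the change was 1.85 (edgeR adjusted p = 0.0424, with 5.68% of genes called). Slc4a1 also passed without a filter on low counts (edgeR adjusted p = 0.0483, with 5.53% of genes called). With sex as a covariate it passed too (edgeR adjusted p = 0.0443, with 5.27% called). As KO 18 was the only male, that fit restates the one without KO 18 and is no separate result. Scaling to a list of pan-epithelial genes, of which 9 of 15 fell and 6 did not pass, moved the median log2 fold change of all genes to 0.39, and all 7 rows then rose, as did 64.7% of all tested genes. In whole tissue, more red cells and more RNA per red cell cannot be told apart, nor can either from less RNA of the other cells.

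**Figure D2:**
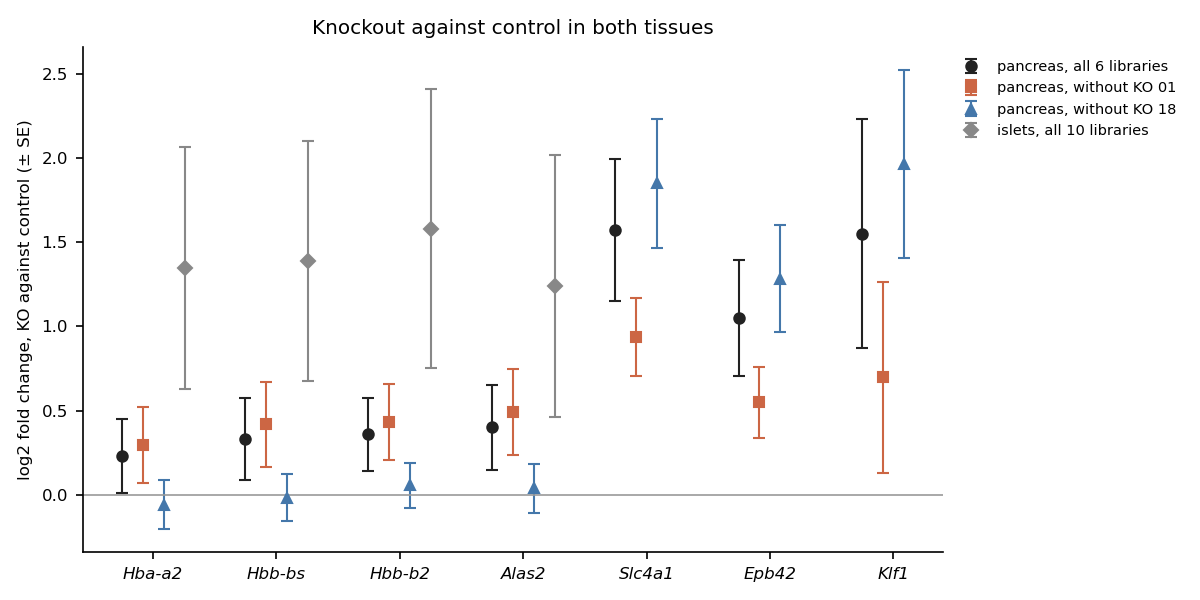
Log2 fold change of KO against control (y axis, points ± SE) for each gene (x axis) in the pancreata with all 6 libraries, without KO 01 and without KO 18, and in islets with all 10 libraries, where only 4 rows were tested. The globins and Alas2 sit near 0 without KO 18, whereas Slc4a1, Epb42 and Klf1 are above 0 in each pancreas set.

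Expressed per globin read, the 7 rows fell into 2 patterns. Alas2 kept a nearly fixed ratio, with 41.5, 39.0 and 41.4 reads per 1000 adult globin reads in controls 02, 08 and 13 and 42.3, 44.3 and 42.0 in KO 01, 18 and 19. The ratio of alpha to beta reads was also narrow, 0.221, 0.211 and 0.202 in controls and 0.202, 0.189 and 0.205 in KO pancreata. Hbb-b2 made up between 21.5% (95% Wilson interval 21.0 to 22.0%) and 23.0% (22.5 to 23.6%) of beta reads, intervals that cover counting error only.

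Slc4a1 varied far more against the globins. It stood at 15.7, 11.2 and 21.1 reads per 1000 globin reads in controls and at 73.0, 15.4 and 39.4 in KO 01, 18 and 19. KO 18 was inside the control range on this scale, although it had the most globin RNA. Epb42 was at 2.70, 2.22 and 3.18 per 1000 globin reads in controls and 7.92, 2.03 and 4.97 in KO pancreata, and Klf1 at 0.438, 0.236 and 0.982 and at 2.68, 0.273 and 1.46. For all 3 genes KO 01 was the highest, KO 19 the next, and KO 18 lay within or below the controls.

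**Figure D3:**
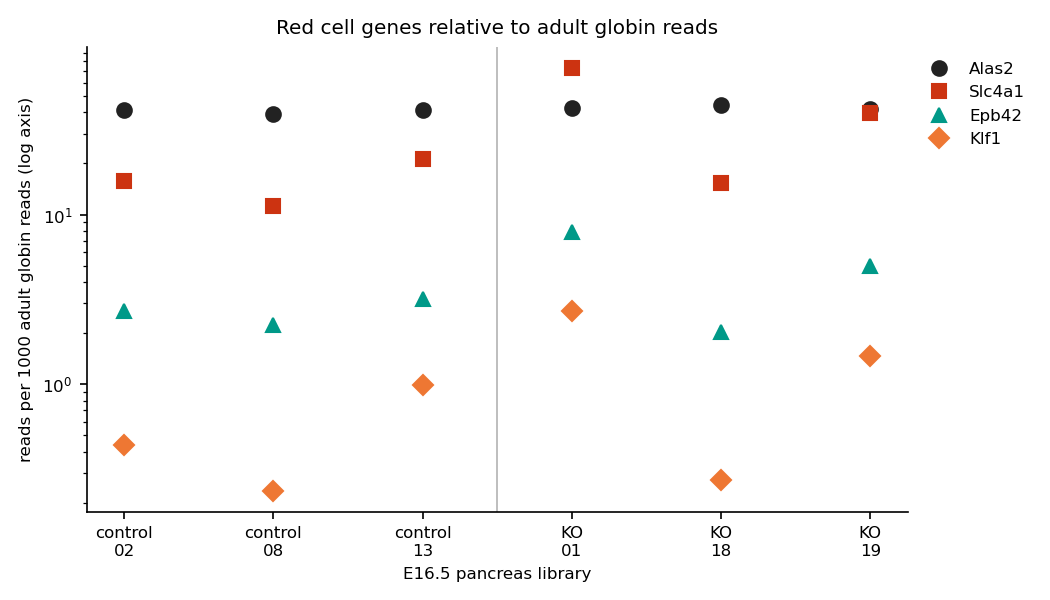
Reads of Alas2, Slc4a1, Epb42 and Klf1 per 1000 adult globin reads (log axis) in each of the 6 E16.5 pancreas libraries, 1 symbol per gene. Alas2 is level at 39.0 to 44.3, while the other 3 genes peak in KO 01 and are at or near their control values in KO 18.

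Genes of like pattern were then looked for among all genes, which for the members restates the ratios above. The measure of likeness was the SD over the 6 libraries of the log2 ratio of 2 genes, low where they keep a fixed ratio, and it was taken over 14235 genes with a mean of at least 1 CPM. Against Hbb-bs, whose own log2 level had an SD of 0.39, the lowest values were those of Hbb-b2 (0.05), Alas2 (0.05) and Hba-a2 (0.08), at ranks 1, 2 and 3. The next genes were Fam124b, F13a1, Gfra2, Cd4 and Itga2b, with SDs of 0.09 to 0.14. Slc4a1, Epb42 and Klf1 were at ranks 13999, 13695 and 14126, where a gene of wide spread stands whatever its pattern. Against Slc4a1, whose own SD was 1.01, genes among the most alike were Mfsd2b (0.16), the carbonic anhydrase gene Car2 (0.18) and the beta spectrin gene Sptb (0.22). Epb42 was at rank 13 and Klf1 at rank 113 in that order, and the globins and Alas2 were between ranks 4607 and 6967, with SDs of 0.98 to 1.02 where the median gene had 1.02. These are descriptions, with no test, over the same 6 libraries for every gene.

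Car2 and Mfsd2b were chosen for their likeness to Slc4a1 in these 6 libraries, so their levels between the groups follow from that choice and are given with no test. Car2 was at 15.2, 9.86 and 16.2 CPM in controls and at 54.8, 23.9 and 30.4 CPM in KO 01, 18 and 19. The groups did not overlap and KO 01 was the highest. The log2 fold change was 1.40 (SE 0.31) for Car2 and 1.68 (SE 0.45) for Mfsd2b. Car2 is abundant in red cells and is also known from pancreatic ducts, and Mfsd2b is a lipid transporter of red cells and platelets.

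The wider lists of red cell genes are given by their counts, and differences between lists were not tested. Of 12 tested genes of the red cell membrane, Slc4a1 and Epb42 among them, 2 rose in edgeR, where 3.75% of all genes rose, and 10 did not pass. DESeq2 called 8 of 13, all higher, where it called 5.87% of its genes higher. All 12 had a log2 fold change above 0 and an unadjusted p under 0.05, against 25.4% of all genes at that p, with a median of 1.65 against -0.00121 for all genes. The 2 were the beta spectrin gene Sptb (12.4 ± 2.19 to 34.5 ± 15.9 CPM, SD, n = 3, log2 fold change 1.49, edgeR adjusted p = 0.0354) and the adducin gene Add2 (5.22 ± 0.354 to 37.1 ± 26.4 CPM, SD, n = 3, log2 fold change 2.83, edgeR adjusted p = 0.0269). Neither is confined to blood here, since islets had Sptb at 29.2 to 38.4 CPM and Add2 at 3.81 to 8.15 CPM while Slc4a1 there was at most 2.04 CPM. The median of the membrane list was 1.06 without KO 01, with 3 of 13 tested genes called, where 6.88% of all genes were. It was 2.10 without KO 18, with 9 of 13 called, where 5.68% of all genes were. Without control 02, 08 or 13 no gene of this or any other list was called, in fits where edgeR called 0, 4 and 0 of all genes, and the median of the membrane list was 1.72, 1.48 and 2.05.

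Of 14 heme and iron genes, Alas2 among them, 0 passed edgeR (median log2 fold change 0.16), 3 had an unadjusted p under 0.05, a smaller share than that of all genes, and DESeq2 called 1 where it called 1561 of all its 15562 genes, namely the mitochondrial iron importer gene Slc25a37 (edgeR log2 fold change 0.77, adjusted p = 0.0563). The most abundant were the transferrin receptor gene Tfrc (180 ± 8.79 to 206 ± 37.5 CPM, SD, n = 3) and the heme enzyme gene Cpox (158 ± 9.64 to 167 ± 26.7 CPM), and neither passed. Fech, the ferrochelatase gene, averaged 71.4 ± 1.71 CPM in control and 85.9 ± 12.1 CPM in KO libraries (SD, n = 3, edgeR adjusted p = 0.140). Of 10 erythroid regulators, Klf1 among them, 0 passed edgeR (median 0.37). At an unadjusted p under 0.05 there were 3, Gata1, Tal1 and Nfe2, a share near the 25.4% of all genes. DESeq2 called the same 3 of 11 regulators, all higher, where it called 5.87% of its genes higher. The most abundant regulators, Ldb1 (111 ± 7.88 against 108 ± 4.13 CPM, SD, n = 3) and Sox6 (84.8 ± 4.14 against 92.0 ± 7.49 CPM), are expressed widely. Gata1, the master factor of red cell precursors, was at 0.867, 0.504 and 0.748 CPM in controls and at 4.71, 1.29 and 2.20 CPM in KO 01, 18 and 19, without overlap. Among 11 genes of late red cell maturation, Trim10 rose (log2 fold change 1.27, edgeR adjusted p = 0.0402) and Isg20 fell by 0.59 on the log2 scale (adjusted p = 0.0391). The 2 tested embryonic globins, made by the first red cells of the yolk sac, did not pass in edgeR or DESeq2, nor at an unadjusted p under 0.05. Hba-x was at 2.83, 2.35 and 2.30 CPM in controls and 3.23, 2.98 and 1.49 CPM in KO pancreata, and Hbb-y at 4.33, 4.65 and 3.51 CPM and at 4.50, 2.91 and 1.78 CPM.

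**Figure D4:**
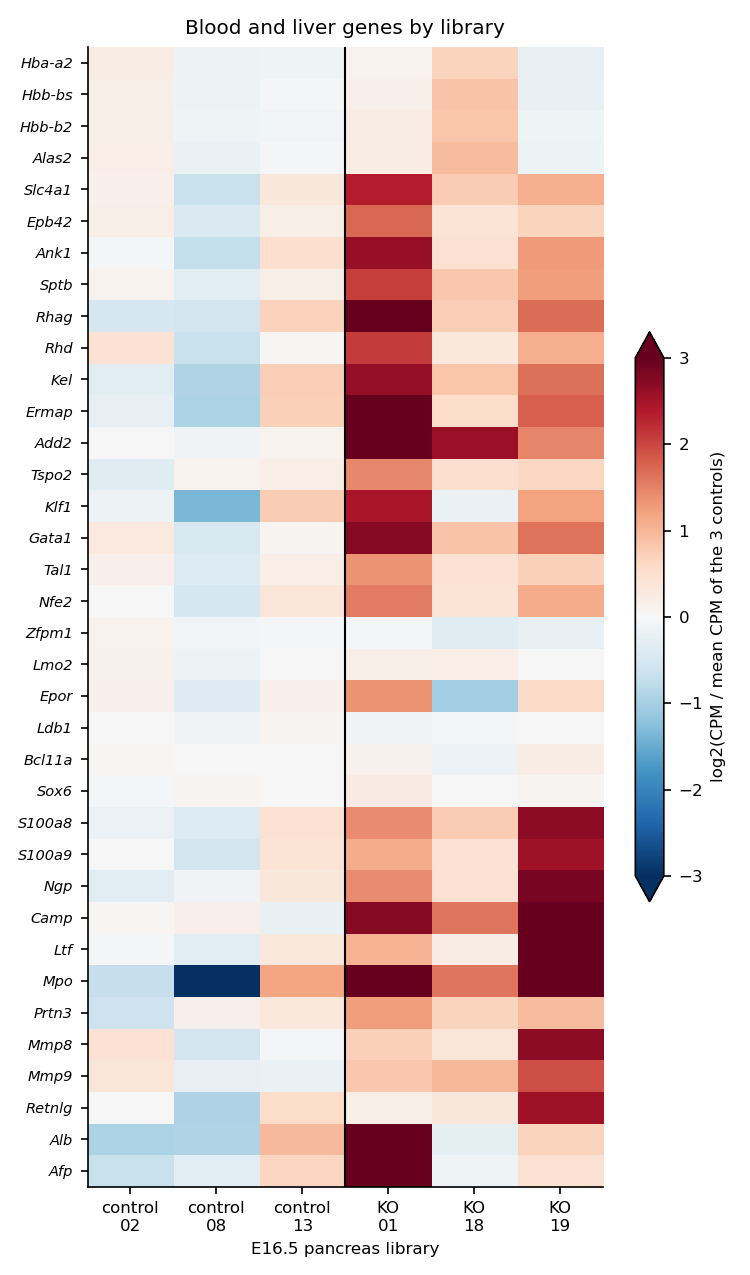
Log2 ratio of each library's CPM to the mean CPM of the 3 control pancreata (colour, with values past 3 in either direction in the end colours), for the adult globins and Alas2, then 10 of the 12 tested red cell membrane genes, the tested erythroid regulator and granulocyte genes, then Alb and Afp. KO 01 is highest for most membrane genes and for Alb and Afp, KO 19 for most granulocyte genes, and KO 18 for the globins.

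Markers of other cells moved with these genes, and their part in the results was not tested. Of the 12 liver genes 0 rose in edgeR and 1, Ttr, fell, where 3.75% of all genes rose and 2.68% fell. Even so, 11 of the 12 had a log2 fold change above 0, with a median of 1.60. At an unadjusted p under 0.05 there were 6, Ttr among them, against 25.4% of all genes. The summed level of the list was 469 to 652 CPM in controls against 456 to 1909 CPM in the KO group, the highest in KO 01. KO 01 was thus the highest library both for Slc4a1, Epb42 and Klf1 and for Alb and Afp. Among KO pancreata Alb was at 616, 81.7 and 43.1 CPM in 01, 19 and 18, the order of Slc4a1 too. Among controls both were highest in 13, with Alb at 101 CPM against 26.9 in 02 and 27.4 in 08. Control 13 had more Alb than KO 18 and 19 but less Slc4a1. This likeness was not tested. Without KO 01 the liver list had a median log2 fold change of 0.13, against 1.60 with all libraries and 2.03 without KO 18. Slc4a1 was higher in KO 18 and 19 than in each control, and how far it followed the liver genes was not tested. Of 10 tested granulocyte genes 1 rose, Camp (log2 fold change 2.69, edgeR adjusted p = 0.0250), where 3.75% of all genes rose. DESeq2 called 3 of 11, all higher, where it called 5.87% of its genes higher. All 10 tested in edgeR had a log2 fold change above 0, with a median of 1.75. Of these, 9 had an unadjusted p under 0.05, as did 25.4% of all genes. The list summed to 28.0 to 47.5 CPM in controls against 57.1 to 237 CPM in the KO group, the highest in KO 19. Of 11 macrophage genes 1, Lyz2, rose in edgeR (log2 fold change 0.95, adjusted p = 0.0461), where 3.75% of all genes rose. It was the only 1 of the 11 with an unadjusted p under 0.05, against 25.4% of all genes. The Lyz2 call was lost without KO 18, without KO 19 and with sex as a covariate. The macrophage list sum was highest in KO 18. Of 12 endothelial genes Flt1, Eng and Robo4 fell, where 2.68% of all genes fell in edgeR, and 0 had a log2 fold change above 0. At an unadjusted p under 0.05 there were 8, against 25.4% of all genes. DESeq2 called 7, all lower, where it called 4.16% of its genes lower. The endothelial list summed to 987 to 1281 CPM in controls against 755 to 995 CPM in the KO group. Genes of the pancreas itself moved the other way. Of 10 pancreas and islet identity genes 6 fell, among them Ins1, Ins2 and Sst, where 2.68% of all genes fell. None had a log2 fold change above 0 (median -0.87). The list sums were 12739 to 15055 CPM in controls against 7322 to 11221 CPM in the KO group. With pan-epithelial scaling 6 identity genes fell, where 0.322% of all genes did, and 2 of the 10 were above 0. Under that scaling 0 endothelial genes were called and 4 of the 12 were above 0. All 12 membrane and all 10 granulocyte genes then rose, with 6 of 12 liver genes. So did 13 of 14 heme and iron genes, 8 of 10 erythroid regulators and 64.7% of all genes. In edgeR 0 of 6 platelet and 0 of 4 spleen stroma genes passed, none of them at an unadjusted p under 0.05 or in DESeq2. Of 5 lymphocyte genes 0 passed, 2 had an unadjusted p under 0.05 (25.4% of all genes) and DESeq2 called 1, Ptprc (1561 of its 15562 genes).

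In islets of 60-week males the globins were much scarcer than in pancreata, and were highest in 3 animals. The 3 globin rows summed to 71.1, 15.9, 20.0, 13.5 and 15.3 CPM in controls 052, 826, 829, 857 and 858, and to 216, 24.3, 75.0, 21.6 and 15.8 CPM in KO 055, 122, 803, 812 and 845. KO 055, KO 803 and control 052 stood above the other 7 libraries, which lay between 13.5 and 24.3 CPM in both genotypes. Hba-a2 was at 13.7, 3.44, 3.81, 2.37 and 2.22 CPM in controls and at 38.1, 4.97, 13.2, 3.98 and 3.06 CPM in KO animals. Its log2 fold change was 1.35 (SE 0.72, edgeR adjusted p = 0.741).

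Hbb-bs was at 49.5, 11.0, 14.0, 9.93 and 11.4 CPM in controls and at 152, 17.7, 51.0, 15.9 and 11.3 CPM in KO animals. The same 3 libraries were high and the groups overlapped, and KO exceeded control by 1.39 on the log2 scale (SE 0.71, adjusted p = 0.727 in edgeR). Hbb-b2 was at 7.89, 1.49, 2.18, 1.15 and 1.66 CPM in controls and at 26.2, 1.70, 10.8, 1.66 and 1.47 CPM in KO animals (log2 fold change 1.58, SE 0.83, edgeR adjusted p = 0.737).

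Alas2 followed the globins in islets too. It was at 4.57, 0.552, 0.814, 0.871 and 1.15 CPM in controls and at 10.7, 1.12, 4.60, 0.761 and 0.862 CPM in KO animals, high in the same 3 libraries. Its log2 fold change was 1.24 (SE 0.78, edgeR adjusted p = 0.808). Leaving out KO 055 lowered the log2 fold change of Hbb-bs to 0.36 and that of Alas2 to 0.30, and leaving out control 052 raised them to 2.10 and 2.10.

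The membrane genes were close to the limit of counting. Slc4a1 had 8, 0, 3, 1 and 3 reads in controls and 53, 0, 22, 1 and 0 reads in KO animals, so that 75 of its 76 KO reads came from KO 055 and KO 803. Epb42 had 2 reads in control 052, 2 in KO 055, 1 in KO 803 and 0 in the other 7 libraries. The 3 libraries rich in globin thus held all Epb42 reads. Klf1 did not share this pattern, with 1, 5, 4, 4 and 4 reads in controls and 4, 8, 2, 5 and 4 reads in KO animals, the fewest in control 052 and KO 803. These 3 genes did not pass the filter on low counts. Gata1 had 0 reads in 8 of the 10 libraries and 1 in each of the other two.

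**Figure D5:**
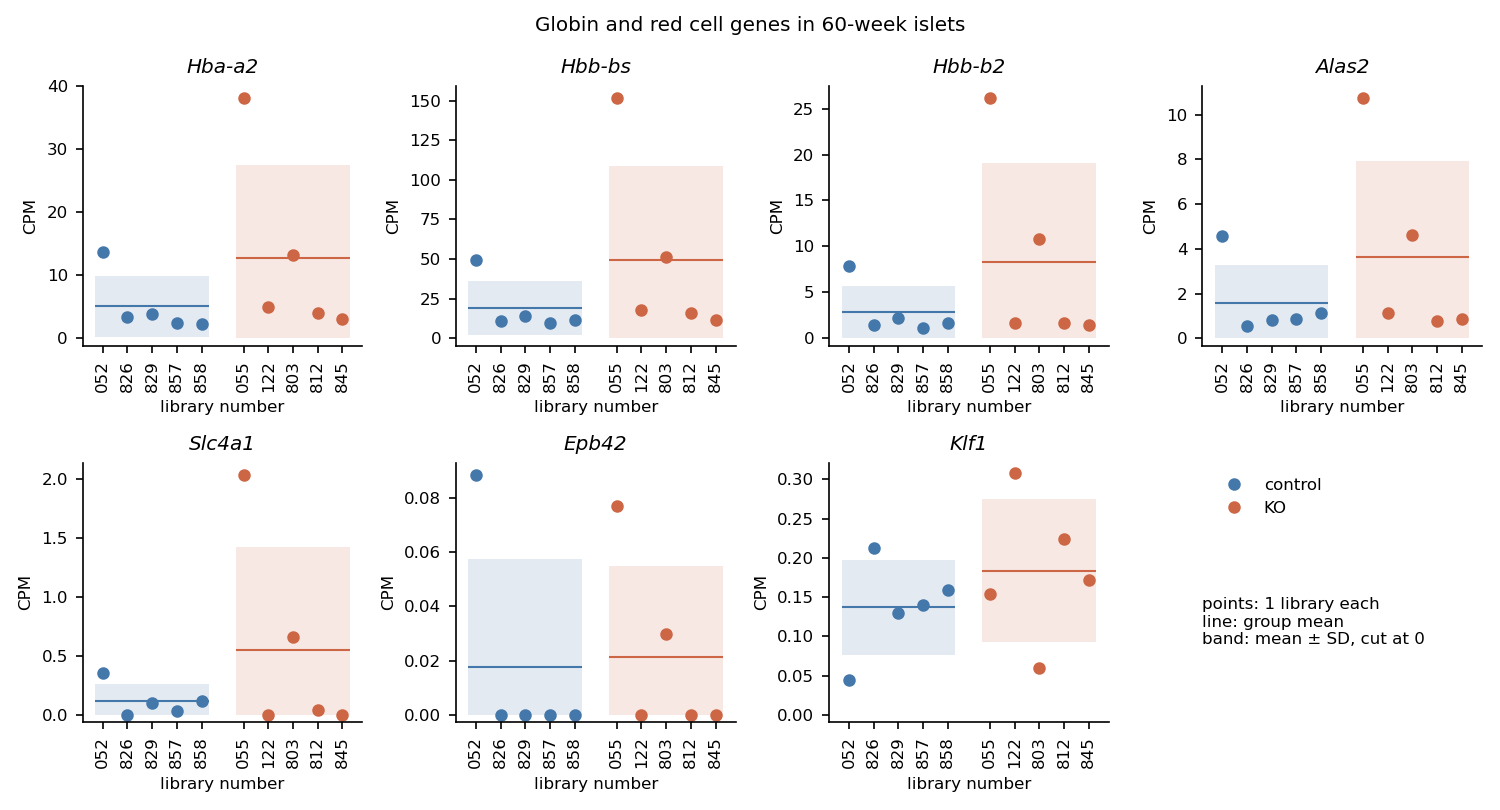
Level of each gene in CPM (linear axis from 0) in islets of 5 control and 5 KO males, with 1 point per library, a line at the group mean and a band of ± SD cut off at 0. Control 052, KO 055 and KO 803 stand above the others for the globins, Alas2 and Slc4a1, and not for Klf1.

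In edgeR 0 of the 4 tested rows passed between KO and control islets, where 0.155% of 14219 genes did, and 0 of the 4 had an unadjusted p under 0.05, as 7.18% of genes did. DESeq2 called 0 of the 6 rows to which it gave an adjusted p, against 0.638% of its genes, and the groups of all 4 rows overlapped, where those of 1.55% of tested genes did not. Of the islet context lists, 1 endothelial gene, Egfl7, rose (log2 fold change 0.28, edgeR adjusted p = 0.0498). That call was lost in 13 of 16 alternatives, with library totals, pan-epithelial scaling, no filter on low counts and each of the 10 libraries left out (edgeR adjusted p = 0.0528 to 0.167). The endothelial list summed to 1016 to 1074 CPM in controls and 1045 to 1238 CPM in KO animals, the highest in KO 055, and this was not tested against the globins. In edgeR 0 genes passed of the red cell membrane (4 tested), heme and iron (14), erythroid regulator (6), late maturation (8), macrophage (10), lymphocyte (3), liver (4) and platelet (2) lists, 1 had an unadjusted p under 0.05 (Mrc1, a macrophage gene), and DESeq2 called 0. The most abundant genes of the red cell lists were Sptb (30.8 ± 1.02 against 33.9 ± 3.83 CPM, SD, n = 5), Tfrc (93.0 ± 9.70 against 103 ± 12.7 CPM), Ldb1 (82.4 ± 6.63 against 85.4 ± 9.12 CPM) and Xpo7 (151 ± 7.41 against 147 ± 7.22 CPM). The granulocyte gene Camp had 0 reads in all 10 islet libraries.

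By the same measure of likeness over the 10 islet libraries and 13169 genes, Hba-a2 (SD 0.18), Hbb-b2 (0.34) and Alas2 (0.37) were again the genes most alike to Hbb-bs, whose own log2 level had an SD of 1.31. The next were Klf2, Klf4, Klf6, Mx1 and Zfp36, with SDs of 0.75 to 0.86, a wide gap from the red cell genes. Klf2 was at 19.4 CPM in control 052 and 24.6 CPM in KO 055, and at 4.59 to 7.78 CPM in the other 8, KO 803 included (6.52 CPM). Klf2, Klf4, Klf6 and Zfp36 are known as rapid response genes.

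No row passed the interaction test, which asks whether the genotype effect differs between the tissues. The difference (pancreas minus islets) was -1.07 on the log2 scale for Hbb-bs (SE 0.99, edgeR adjusted p = 0.587), -0.72 for Slc4a1 (SE 1.42, adjusted p = 0.834) and 1.17 for Klf1 (SE 0.94, adjusted p = 0.516). In edgeR 0 of 7 rows passed, where 7.19% of 15823 genes did, 0 of 7 had an unadjusted p under 0.05, and DESeq2 called 0, against 1538 of its 15370 genes. The SE of the 7 differences ran from 0.90 to 2.27 on the log2 scale.

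Between control tissues all 7 rows were higher in pancreata, where 85.9% of 15823 genes differed in either direction. The log2 differences were 5.75 (SE 0.69) for Hba-a2, 5.70 (SE 0.76) for Hbb-bs, 6.64 (SE 0.77) for Hbb-b2 and 5.36 (SE 0.63) for Alas2, each with an edgeR adjusted p below that of Klf1 (0.00142). Slc4a1 and Epb42 had larger differences, 7.68 (SE 0.76) and 7.66 (SE 0.59), and Klf1 a smaller one, 2.56 (SE 0.64). Pooled reads of Epb42 gave a ratio of 321, with a counting interval of 88.1 to 2664, since controls had only 2 islet reads. The embryonic globins Hba-x and Hbb-y had 0 reads in all 10 islet libraries and were at least 108-fold and 179-fold higher in control pancreata, taking 3 reads over the control islets as the floor. Tissue, age, sex and preparation differ together in this comparison and cannot be told apart.

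The order of levels per kilobase also differed between the tissues. In control islets it was Hbb-bs (30.1 ± 26.7 RPKM, SD, n = 5), Hbb-b2 (4.59 ± 4.51 RPKM), Hba-a2 (4.53 ± 4.29 RPKM), Alas2 (0.808 ± 0.853 RPKM), Klf1 (0.0895 ± 0.0397 RPKM), Slc4a1 (0.0268 ± 0.0307 RPKM) and Epb42 (0.00372 ± 0.00831 RPKM). Control libraries did not overlap in RPKM between Hbb-bs and Hbb-b2 or between Alas2 and Klf1, and the other neighbours in this order overlapped. Alas2 stood at 34.7 to 75.3 reads per 1000 globin reads across the 10 islet libraries, a range that holds the 39.0 to 44.3 of the pancreata. Slc4a1 stood at 0 to 9.45 per 1000, below the lowest pancreas at 11.2. That ratio rests on 15 Slc4a1 reads over all control islets and 76 over all KO islets, and no counting interval was taken for it. Hbb-b2 made up 8.76% (95% Wilson interval 6.59 to 11.6%) to 17.4% (15.8 to 19.1%) of beta reads in islets, below every pancreas.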

How the data were processed

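RNA was sequenced from 6 pancreas and 10 islet libraries, grouped by the genotypes of the labels. The authors deposited unnormalised counts for each gene, with a gene length in kb as another column. Per the submitters' processing notes the build was mm10 and the tools included HTSeq 0.11.1, STAR 2.6.0, Trimmomatic and edgeR. No source here gives the annotation version, the strand setting or the treatment of reads that fit several places. No replicates agreed within sampling noise (chi-square per degree of freedom at least 4.90).

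The quasi-likelihood test of edgeR 4.0.16 (R 4.3.3, filterByExpr, TMM) was fitted on all genes of each tissue, with Benjamini-Hochberg adjustment and a threshold of 0.05. A model over all 16 libraries gave the tissue and interaction tests. CPM and RPKM were computed from the counts. Fits were tested on simulated data. Members and lists were chosen with earlier results of these data known. All members were named, with up to 3 called genes of each list by lowest p, otherwise the 2 most abundant (given for red cell lists, the other lists by their sums), and the 5 genes most alike to Hbb-bs and to Slc4a1. Some of the genes so chosen are not reported here singly and count only in their list. Fech, Slc25a37, Gata1, Tal1, Nfe2, Ptprc, Mrc1 and Tff2, and Camp in islets, were named after their values were seen. Alternatives covered scaling, filters, DESeq2 1.42.0, summed beta copies, sex and each replicate left out. List counts under these were added after seeing the data. Motifs were searched in RefSeq promoters, and coding sequences came from GENCODE M21.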

Additional observations from a re-analysis of the deposited data

Results flagged for a closer look

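Within the islet groups of 5, single libraries lay far from the rest in CPM for 7 of 14 combinations of gene and genotype. The rule was a gap to the next library of more than 0.71 of the range. Its rate of about 1 in 20 by chance holds for normally distributed values and not for skewed or near-zero levels. A gene read in only 1 library, such as Epb42 in controls, meets the rule whatever its level. Control 052 was the far library for Hba-a2 (13.7 CPM, the next control at 3.81), Hbb-bs (49.5 CPM, next 14.0), Hbb-b2 (7.89 CPM, next 2.18), Alas2 (4.57 CPM, next 1.15) and Epb42 (0.0887 CPM, which is 2 reads, with 0 in the other 4 controls). KO 055 was the far library for Hba-a2 (38.1 CPM, next 13.2) and Hbb-bs (152 CPM, next 51.0). These values are not independent, since the globins and Alas2 kept a near-fixed ratio within libraries. Pancreas groups, with 3 libraries each, were not examined in this way.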

How the results depend on the processing

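The count of members past the threshold in pancreata was 0 under edgeR with TMM, library totals or RLE scaling, with at least 10 reads in every library, and with the beta copies summed. It was 7 with scaling to pan-epithelial genes, 1 without a filter on low counts (Slc4a1), 1 with DESeq2 (Epb42), 1 with sex as a covariate (Slc4a1), and 0 to 1 when each replicate was left out, the 1 being Slc4a1 without KO 01 or without KO 18. With pan-epithelial scaling the share of higher calls among all tested genes rose from 3.75% to 64.7% and that of lower calls fell to 0.322%. Hba-a2 and Hbb-bs changed sign with sex as a covariate (-0.063 and -0.021). As KO 18 was the only male, that fit restates the one without KO 18, for Slc4a1 as well. When each replicate was left out, Hba-a2 ranged from -0.058 to 0.42 and Hbb-bs from -0.017 to 0.55, both below 0 without KO 18. The other pancreas members kept a fold change above 0 in every alternative run. The adjusted p of Slc4a1 ranged from 0.00516 to 0.207 and that of Epb42 from 0.00751 to 0.278. In islets 0 members passed in any alternative, and the adjusted p of Hbb-bs ranged from 0.481 to 0.914. No member passed the interaction test in any alternative. The tissue difference was called for 7 members, and for 4 of 4 where at least 10 reads in every library were required, since Slc4a1, Epb42 and Klf1 were then not tested. DESeq2 called 1561 genes in pancreata against 959 by edgeR, and 106 against 22 in islets. Without control 02, 08 or 13 edgeR called 0, 4 and 0 genes in pancreata. No paired analysis was possible because the groups share no replicate numbers. Depth limits Slc4a1, Epb42 and Klf1 in islets, where 3 reads are 0.0897 to 0.134 CPM.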
